A study of Rattus norvegicus with 6 samples.

Results

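A group of 7 genes that mark nerve fibres and the glia around them were followed in mesenterial adipose tissue of newborn rats. They are the neuronal genes Gap43, Stmn2, Tubb3, Uchl1 and Ret and the glial genes Sox10 and S100b, 5 neuronal and 2 glial. Members were taken as the probe sets that the platform annotation pairs with exactly 1 of these symbols, which gave 12 of the 31099 probe sets on the array (7 of 14217 genes with such a probe set), 10 neuronal and 2 glial. The tissue came from wild-type Sprague-Dawley rats, an outbred laboratory strain, sampled as newborns. Their dams were fed either a vitamin D deficient diet with 0 IU of vitamin D per kg (3 arrays, the deficient group) or an adequate diet with 1000 IU per kg (3 arrays, the adequate group). Total RNA was read on Affymetrix Rat Genome 230 2.0 arrays, and each value is a MAS5 signal, a linear intensity scaled to a common level on every array. Neither litter nor sex is labelled, and the labels do not tell whether each array holds RNA of a different pup, so the spread behind every p-value is that between these samples and may be technical. Only the dams' feed is labelled, and no vitamin D status of the pups was used here.

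The mesentery carries the nerves of the gut. Most of the cell bodies of its sympathetic and sensory axons lie in distant ganglia, whereas Schwann cells lie along the fibres, and neurons and glia of the enteric nervous system lie in the gut wall. Growing axons use Gap43 in the growth cone, Stmn2 to destabilise microtubules and Tubb3 as a neuron-enriched tubulin. Uchl1, the protein known as PGP9.5, is an abundant neuronal ubiquitin hydrolase. Ret is the receptor tyrosine kinase for ligands of the GDNF family and is required by the neural crest cells that form the enteric nervous system. Sox10 is the transcription factor that neural crest cells and their glial descendants keep, and S100b is a calcium-binding protein of Schwann cells and enteric glia that fat cells can also express.

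The median signal per array lay between 155 and 166 over the 31042 probe sets that are not controls. In the hybridisation controls, 2 of the deficient arrays (1 and 2) differed from the other 4. The bacterial hybridisation controls read 7.06 and 9.94 times the adequate mean on deficient arrays 1 and 2, against 0.942 times on deficient array 3. The ratio of the 3' to the 5' probe set of beta-actin, which rises when RNA is degraded or labelling stops short, was 7.56, 6.80 and 2.35 on deficient arrays 1 to 3, against 2.39, 4.81 and 2.58 on adequate arrays 1 to 3. The same ratio for Gapdh was 1.71, 1.36 and 1.09 on the deficient arrays, against 1.18, 1.30 and 1.13 on the adequate arrays, so deficient array 2 was close to adequate array 2 there. By group the log2 hybridisation controls averaged 10.80 ± 1.84 in the deficient and 8.75 ± 0.35 in the adequate group (SD, n = 3 each, exact two-sided permutation p = 0.3, where 0.1 is the smallest possible). Neuronal markers fixed for checking the label were clearly read: the intermediate filament genes Prph, Nefm and Nefl lay between 3564 and 4132, between 1399 and 1952 and between 1252 and 1487 over all 6 arrays. Of the glial markers beside the members, Erbb3, the neuregulin receptor of Schwann cells, lay between 33.5 and 115 and Fabp7, a fatty acid binding protein of immature glia, between 3.36 and 64.8, with means under the cutoff for dim probe sets (88.2). The fat cell markers Adipoq, Plin1 and Cidec were also under that cutoff on all 6 arrays, between 2.05 and 47.8, while the fatty acid binding protein Fabp4 lay between 1581 and 2821.

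Between the maternal diets none of the 9 member probe sets bright enough to test passed the adjusted threshold of 0.05 (limma, Benjamini-Hochberg over 18625 probe sets), as for 0% of all tested probe sets. The members did not move one way: 3 tested probe sets had higher means in the deficient group and 6 had lower ones. At an unadjusted p under 0.05 there were 1 higher member probe set (Gap43) and 1 lower (S100b), where 6.03% and 8.18% of all tested probe sets were higher and lower. The groups did not overlap for 1 of the 9, the Gap43 probe set, against 17.4% of all tested probe sets in either direction and 6.55% with the deficient arrays all higher. The middle log2 change was -0.06 over the 9 member probe sets and -0.05 over all tested probe sets. In tissue RNA, fewer cells of a type and less RNA per cell cannot be told apart.

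Deficient arrays 1 and 2 stood apart from the adequate arrays for most member probe sets, as they did over the whole array. Both of those arrays were above, or both below, every adequate array for 6 of the 9 member probe sets, against 51.8% of all tested probe sets. Tubb3, Sox10 and the dimmer tested Ret probe set were the exceptions. Without deficient array 3, 5 member probe sets passed the adjusted threshold, 2 higher and 3 lower, where 19.4% of all tested probe sets passed. With deficient array 3 alone against the adequate arrays, 0 of the 9 had an unadjusted p under 0.05 by limma, where 6.52% of all tested probe sets did. The fit was also run with the hybridisation control level of each array as a covariate. The log2 change was then 0.20 for Gap43, 0.066 for the brightest Ret probe set and -0.025 for the brighter Stmn2 probe set. For Uchl1 it was -0.037 and for S100b -0.083. There 0 of the 9 had an unadjusted p under 0.05 by limma, and the share of all tested probe sets was not counted. The control level was 11.60 and 12.09 in log2 on deficient arrays 1 and 2, against 8.35 to 8.99 on the others. This fit therefore rests mainly on deficient array 3 and cannot tell diet from control level. Deficient arrays 1 and 2 were also those with the high hybridisation controls and beta-actin ratios, and the part of these measures in the members' values was not tested.

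**Figure D1:**
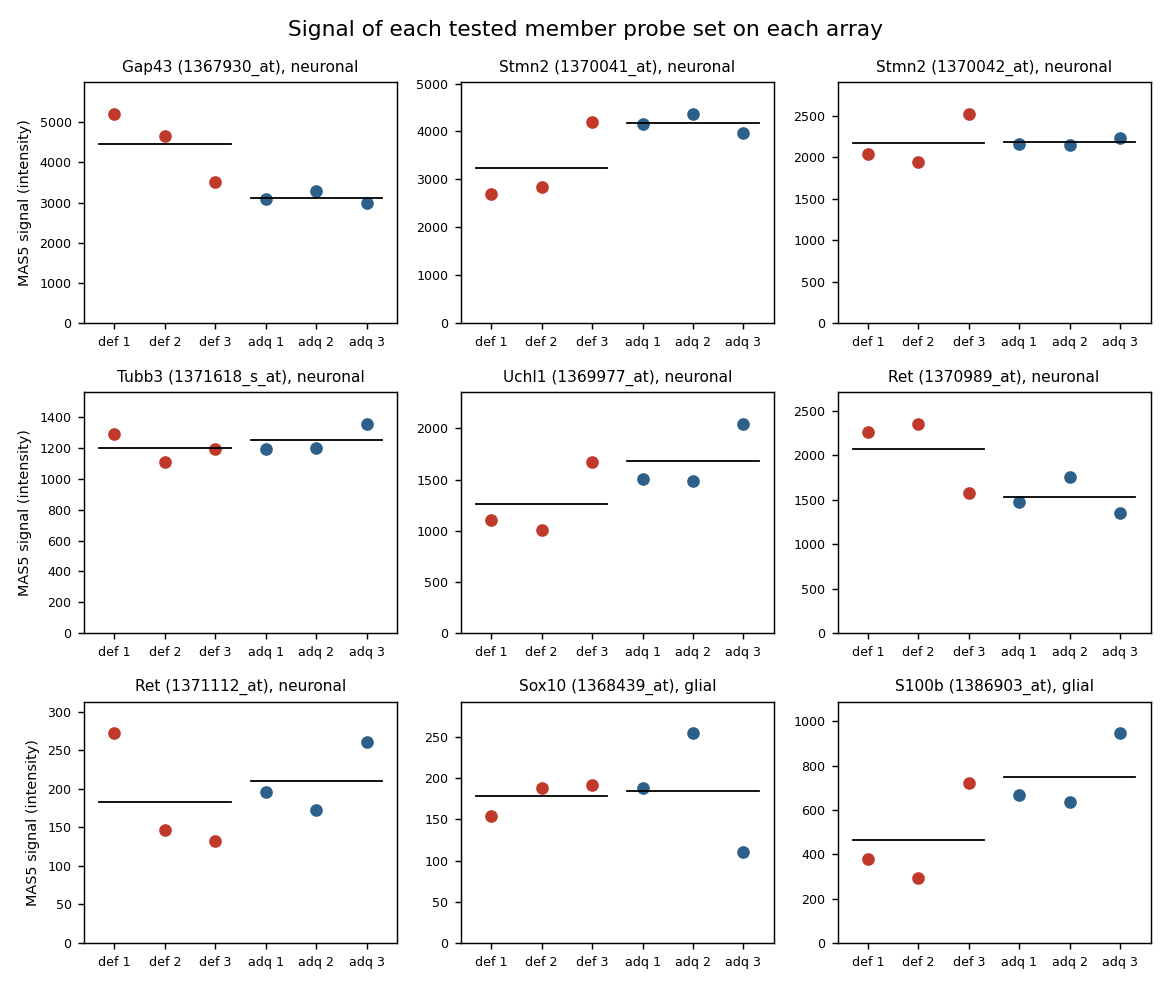
MAS5 signal (linear intensity, axis from 0) of the 9 tested member probe sets on deficient arrays 1 to 3 (red) and adequate arrays 1 to 3 (blue), with horizontal lines at the group means. Gap43 is the single panel in which all deficient arrays lie above all adequate arrays.

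Gap43, the growth cone protein gene, read 5207, 4652 and 3501 on deficient arrays 1 to 3, against 3094, 3280 and 2986 on adequate arrays 1 to 3 (probe set 1367930_at). All 3 deficient arrays were above all 3 adequate arrays, and deficient array 3 was the nearest to them. In log2 signal this was 12.10 ± 0.30 in the deficient and 11.61 ± 0.07 in the adequate group (SD, n = 3 each). The log2 change was 0.49 ± 0.18 (SE), a fold of 1.41 with a 95% interval of 1.08 to 1.85, an unadjusted p of 0.0175 and an adjusted p of 0.344 by limma. Without deficient array 3 the log2 change was 0.66 with an adjusted p of 0.00528, and with deficient array 3 alone it was 0.17. A second Gap43 probe set, 1371287_at, was too dim to test, at 1.17, 18.7 and 9.94 on the deficient arrays, against 0.164, 20.4 and 1.39 on the adequate arrays.

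Stmn2, the growth-associated stathmin gene, did not follow Gap43. Its brighter probe set, 1370041_at, read 2691, 2843 and 4209 on deficient arrays 1 to 3, against 4163, 4370 and 3978 on adequate arrays 1 to 3. Deficient arrays 1 and 2 were the lowest of the 6, while deficient array 3 lay within the adequate range. The log2 change was -0.39 ± 0.19 (SE), a fold of 0.763 with a 95% interval of 0.572 to 1.02 (limma, adjusted p = 0.362), and -0.59 without deficient array 3, where the adjusted p was 0.00720. The other Stmn2 probe set, 1370042_at, read 2040, 1946 and 2524 on the deficient arrays, against 2162, 2142 and 2237 on the adequate arrays. There deficient array 3 was the highest of the 6 and deficient arrays 1 and 2 the lowest, with a log2 change of -0.02 ± 0.15 (SE) between the groups. The log2 ratio of the first to the second probe set, centred on the adequate mean, was -0.53, -0.39 and -0.20 on the deficient arrays, against 0.01, 0.09 and -0.10 on the adequate arrays. The probe sets of this gene therefore differed in the size of their change. Their ratio was further below the adequate mean on each deficient array than on any adequate array. The centring itself places the adequate arrays around 0, and the difference was not tested.

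Tubb3, the neuron-enriched beta tubulin gene, was the steadiest member. Its tested probe set, 1371618_s_at, read 1293, 1108 and 1193 on the deficient arrays, against 1196, 1202 and 1358 on the adequate arrays. The groups overlapped, and the log2 change was -0.06 ± 0.15 (SE), a fold of 0.957 with a 95% interval of 0.760 to 1.20 (limma, adjusted p = 0.849). The suffix of this probe set marks probes shared by more than one transcript, so other tubulin genes may add to it. The other Tubb3 probe set, 1369901_at, was under the cutoff, at 98.0, 6.14 and 55.2 on the deficient arrays, against 57.4, 40.4 and 41.7 on the adequate arrays.

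Uchl1, the PGP9.5 gene, read 1103, 1012 and 1673 on the deficient arrays, against 1507, 1488 and 2047 on the adequate arrays. Deficient arrays 1 and 2 were the lowest of the 6, deficient array 3 lay within the adequate range, and adequate array 3 was the highest. In log2 signal the deficient group averaged 10.27 ± 0.39 and the adequate group 10.70 ± 0.26 (SD, n = 3 each). The log2 change was -0.43 ± 0.22 (SE), a fold of 0.741 with a 95% interval of 0.531 to 1.03 (limma, adjusted p = 0.370). Without deficient array 3 it was -0.65 with an adjusted p of 0.0243, and with deficient array 3 alone it was 0.0095.

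Ret, the GDNF family receptor gene, had 3 probe sets, of which 2 were tested and they differed in direction. The brightest, 1370989_at, read 2265, 2356 and 1574 on the deficient arrays, against 1470, 1757 and 1352 on the adequate arrays. Deficient arrays 1 and 2 were the highest of the 6, and deficient array 3 lay within the adequate range. The log2 change was 0.42 ± 0.19 (SE), a fold of 1.34 with a 95% interval of 0.998 to 1.80 (limma, adjusted p = 0.350), and 0.61 without deficient array 3, with an adjusted p of 0.0179. The dimmer probe set, 1371112_at, read 272, 146 and 132 on the deficient arrays, against 196, 173 and 260 on the adequate arrays. There deficient array 1 was the highest and the other deficient arrays the lowest, and the log2 change was -0.25 ± 0.31 (SE). The third, 1388208_a_at, was not tested, at 55.5, 3.18 and 52.8 on the deficient arrays, against 59.2, 47.9 and 40.6 on the adequate arrays, so deficient array 2 was the lowest of the 6 there and the highest in the brightest probe set.

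Sox10, the neural crest and glial transcription factor gene, read 154, 189 and 192 on the deficient arrays, against 188, 254 and 110 on the adequate arrays. All deficient arrays lay within the adequate range, whose ends were adequate arrays 2 and 3. The log2 signal averaged 7.47 ± 0.17 in the deficient and 7.45 ± 0.61 in the adequate group (SD, n = 3 each). The log2 change was 0.03 ± 0.31 (SE) with a 95% interval of -0.65 to 0.70 on the log2 scale, so neither a fold of 0.636 nor one of 1.63 lies outside the interval (limma, adjusted p = 0.974).

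S100b, the calcium-binding protein gene of glia, had the largest change among the tested member probe sets. It read 380, 294 and 721 on the deficient arrays, against 665, 636 and 945 on the adequate arrays. Deficient arrays 1 and 2 were well below every adequate array, while deficient array 3 lay within the adequate range. In log2 signal this was 8.75 ± 0.67 in the deficient and 9.53 ± 0.31 in the adequate group (SD, n = 3 each). The log2 change was -0.77 ± 0.31 (SE), a fold of 0.586 with a 95% interval of 0.365 to 0.939, an unadjusted p of 0.0301 and an adjusted p of 0.344 by limma. It was -1.14 without deficient array 3, with an adjusted p of 0.00776, and -0.031 with deficient array 3 alone.

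**Figure D2:**
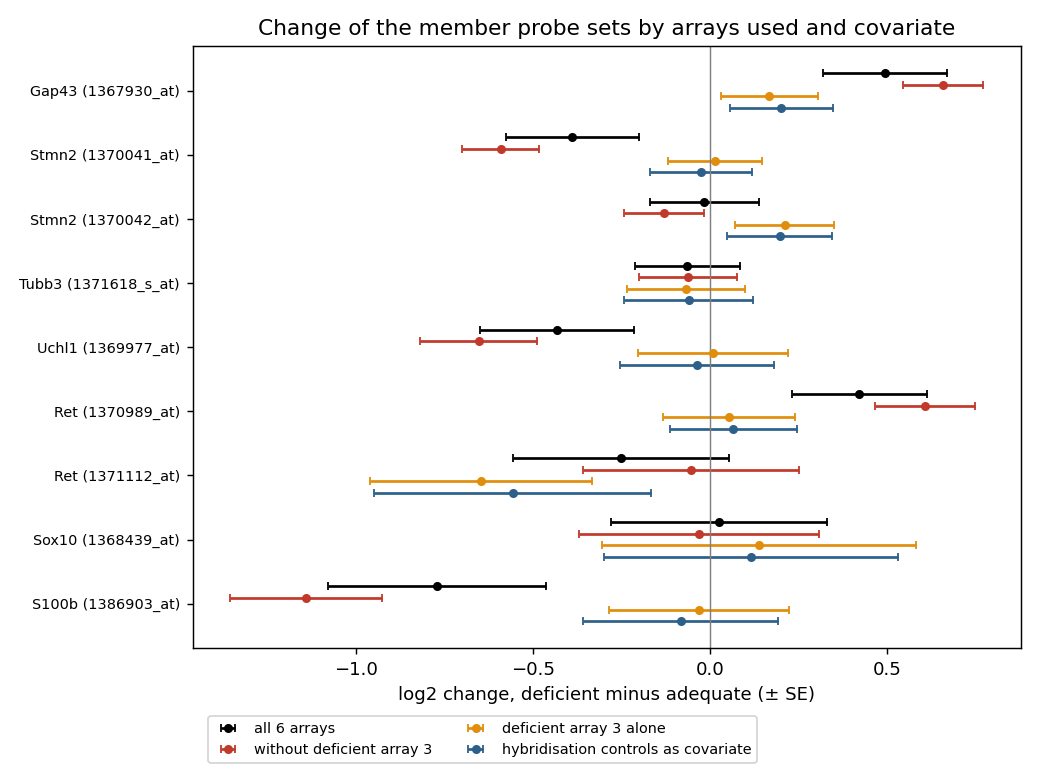
Log2 change, deficient minus adequate (points, with bars of ± 1 SE), of each tested member probe set for all 6 arrays, for 5 arrays (deficient array 3 left out), for deficient array 3 against the adequate arrays, and for a fit that has the hybridisation controls as covariate. S100b was at -0.77 with all arrays and -1.14 without deficient array 3, and at -0.031 with that array alone.

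The promoters of Ret and S100b are shown as those of a neuronal and a glial gene whose brightest probe sets had changes of opposite sign. The dimmer tested Ret probe set was lower, at -0.25, as S100b was. Both start regions were among the RefSeq sequences used, which held 4 of the 7 members (Tubb3, Uchl1, Ret and S100b). Each runs from 250 bases before the gene start to 50 after it, 5′ to 3′ on the gene's strand, in the GRCr8 build, at chr4:153040507-153040806 (minus strand) for Ret and chr20:12381032-12381331 (minus strand) for S100b. Capitals mark the E-box, CANNTG, the core bound by basic helix-loop-helix factors.
Ret: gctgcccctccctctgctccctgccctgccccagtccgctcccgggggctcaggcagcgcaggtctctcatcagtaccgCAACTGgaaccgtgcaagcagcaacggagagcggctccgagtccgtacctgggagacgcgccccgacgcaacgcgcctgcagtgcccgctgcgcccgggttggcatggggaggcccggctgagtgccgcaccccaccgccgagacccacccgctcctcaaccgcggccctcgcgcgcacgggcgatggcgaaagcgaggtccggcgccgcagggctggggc
S100b: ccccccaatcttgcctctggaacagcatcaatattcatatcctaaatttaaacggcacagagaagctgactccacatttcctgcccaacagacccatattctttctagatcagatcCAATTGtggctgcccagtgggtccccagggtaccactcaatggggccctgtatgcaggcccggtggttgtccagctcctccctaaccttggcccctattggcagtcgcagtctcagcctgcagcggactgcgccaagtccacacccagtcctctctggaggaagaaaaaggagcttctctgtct

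Each of these promoters held 1 E-box, and those of Tubb3 and Uchl1 held 0, where 72.1% of the 33469 promoters of this length in the table held at least 1. The SOX core ACAANG, searched on both strands, was found in the promoter of Tubb3, with 2 matches, and in none of the other 3, against 42.1% of all promoters. GC content was 74% for Ret, 67.3% for Tubb3, 58.7% for Uchl1 and 54% for S100b, against a median of 51.7% over all promoters.

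Set against each other, the neuronal members cancelled out and the glial members did not. With each gene's brightest probe set centred on its adequate mean, the mean over the 5 neuronal genes was 0.03, -0.05 and 0.04 on deficient arrays 1 to 3, against -0.05, 0.03 and 0.03 on adequate arrays 1 to 3, on the log2 scale. Behind those near-zero means stood Gap43 and Ret on one side and Stmn2 and Uchl1 on the other. The mean over the 2 glial genes was -0.57, -0.61 and 0.05 on the deficient arrays, against -0.02, 0.17 and -0.15 on the adequate arrays. The glial mean was low on deficient arrays 1 and 2 through S100b, at -0.96 and -1.33, and not through Sox10, at -0.18 and 0.11. Neuronal minus glial was 0.59, 0.56 and -0.02 on the deficient arrays, against -0.04, -0.14 and 0.17 on the adequate arrays, and was given no test because the members were chosen with earlier results known.

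**Figure D3:**
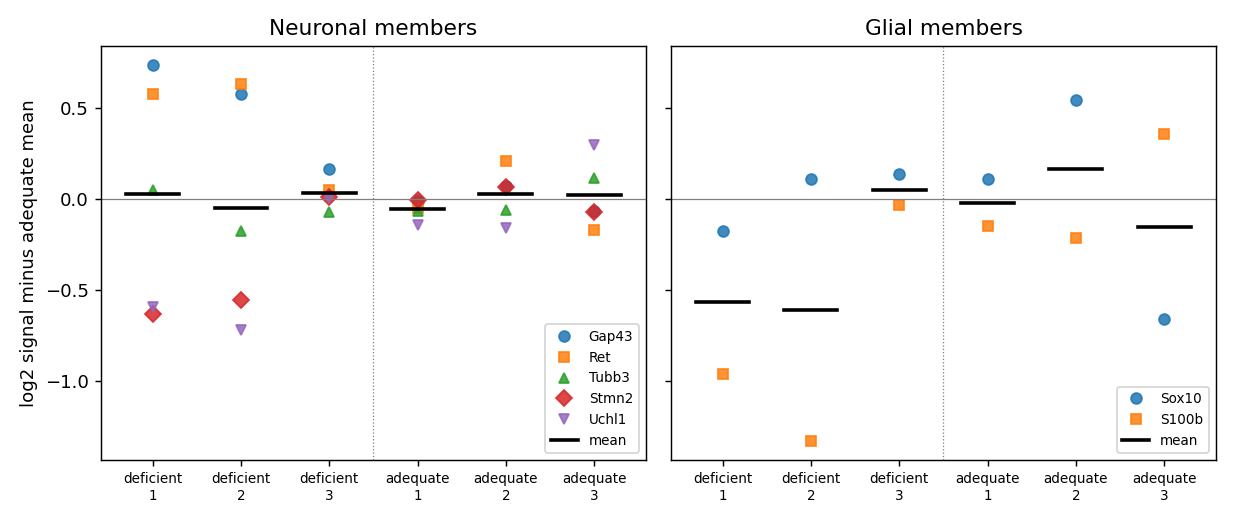
Log2 signal minus the adequate mean of each gene's brightest probe set on each array, neuronal members on the left and glial members on the right, with black bars at the mean over the genes. On deficient arrays 1 and 2 the neuronal genes spread to both sides of a mean near 0, and of the glial genes S100b alone is far below 0.

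Ratios of members within an array do not depend on how that array was scaled, and were taken here between the brightest probe sets. The log2 ratio of Gap43 to Stmn2, centred on the adequate mean, was 1.37, 1.13 and 0.15 on the deficient arrays, against -0.0094, 0.0045 and 0.0049 on the adequate arrays. This ratio was almost the same on the 3 adequate arrays, and was 2.59-fold and 2.19-fold higher on deficient arrays 1 and 2 and 1.11-fold higher on deficient array 3. The ratio of Ret to Uchl1 was 1.17, 1.35 and 0.04 on the deficient arrays, against 0.10, 0.37 and -0.47 on the adequate arrays, so deficient array 3 lay within the adequate range. On the deficient arrays, pairs on the same side stayed closer together, which follows from choosing the sides by these values. Across the adequate arrays the same-side pairs varied more than Gap43 to Stmn2. The ratio of Gap43 to Ret stayed between -0.06 and 0.16 on the deficient arrays, against -0.14 to 0.10 on the adequate arrays. That of Stmn2 to Uchl1 stayed between -0.04 and 0.16 on the deficient arrays, against -0.37 to 0.23 on the adequate arrays. These pairs were picked after their values were seen and were not tested. Their size depends on the probe set, as the other tested probe sets of Stmn2 and Ret differed from the brightest. For Ret the centred log2 ratio of the brightest to the dimmer one was 0.18, 1.14 and 0.70 on the deficient arrays. On the adequate arrays it was 0.03, 0.47 and -0.50.

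**Figure D4:**
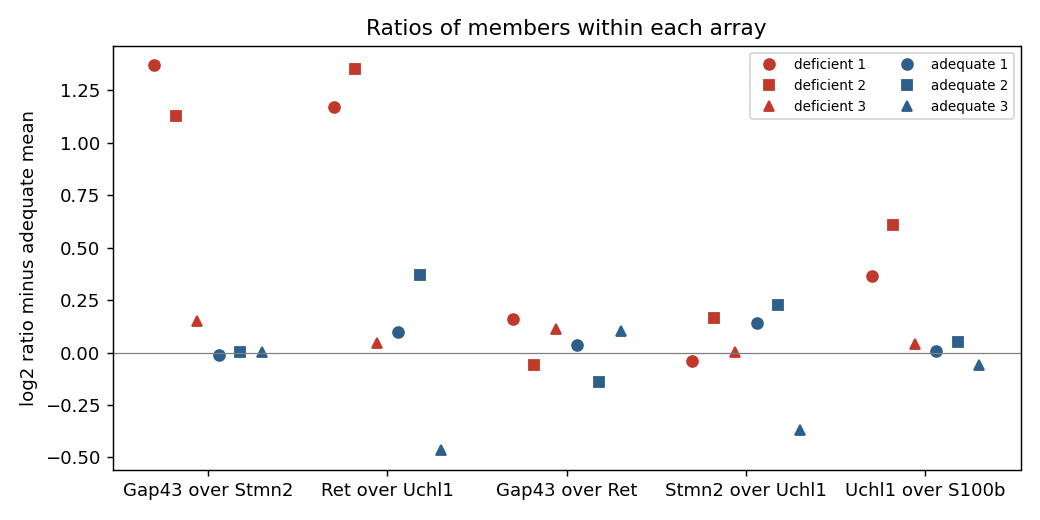
Log2 ratio of 2 members (brightest probe set of each) within each array, minus its adequate mean, for 5 pairs, with deficient arrays in red and adequate arrays in blue. Deficient arrays 1 and 2 lie above 1 for Gap43 over Stmn2 and for Ret over Uchl1, while Gap43 over Ret and Stmn2 over Uchl1 stay within 0.4 of 0 on every array.

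Other genes of nerve fibres had changes in both directions. In a list of 35 axonal and neuronal genes, 31 were tested, 19 with higher and 12 with lower means in the deficient group, and the median log2 change was 0.02 (-0.05 over all tested probe sets). At an unadjusted p under 0.05, 2 were higher and 1 lower, where 6.03% and 8.18% of all tested probe sets were. The same shares stand beside the counts of the lists that follow. The 2 higher were Ina, a neurofilament-type protein gene, at 0.43 ± 0.15 (SE), and Scg2, a granin of dense-core vesicles, at 0.43 ± 0.18. The lower one was Elavl4, a neuronal RNA-binding protein gene, at -0.36 ± 0.16. The fourth gene of this list by p was Stx1a, a syntaxin of synaptic vesicle release, at -0.46 ± 0.23. Of the other filament genes, Nefl had a log2 change of 0.02 ± 0.15 (SE), Nefm of 0.01 ± 0.18 and Prph of 0.02 ± 0.15. The mean over the 31 genes was 0.04, 0.0029 and 0.04 on the deficient arrays, against -0.05, 0.02 and 0.02 on the adequate arrays.

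In a list of autonomic and sensory identity genes, 11 of 22 were tested, 5 higher and 6 lower, and 0 had an unadjusted p under 0.05 by limma. The median log2 change was -0.16. Scn9a, a sodium channel gene of sympathetic and sensory neurons, had -0.40 ± 0.19 (SE), and Phox2a, an autonomic transcription factor gene, -0.43 ± 0.23. Hand2, a transcription factor gene of sympathetic and enteric neurons, had 0.32 ± 0.18, and Ddc, the decarboxylase that makes dopamine, -0.43 ± 0.26. Of the sympathetic markers, Th, which makes the dopamine precursor, lay between 46.8 and 99.6 on the deficient arrays, against 68.3 to 105 on the adequate arrays. Dbh, which turns dopamine into noradrenaline, lay between 85.9 and 90.5 on the deficient arrays, against 68.2 to 98.3 on the adequate arrays. Both were under the cutoff on average and were not tested.

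Most tested receptors and ligands around Ret did not rise with its brightest probe set. Of 19 genes of GDNF, endothelin and neurotrophin signalling, 10 were tested, 3 higher and 7 lower, with a median log2 change of -0.09. Gfra2, the co-receptor that presents neurturin to Ret, had -0.16 ± 0.17 (SE), and Gfra1, the co-receptor for GDNF, had -0.05 ± 0.17. The GDNF gene itself was under the cutoff, at 71.4, 76.1 and 65.4 on the deficient arrays, against 35.4, 21.2 and 42.5 on the adequate arrays. Those Gdnf values do not overlap, but all are in the dim range where signals are least reliable. The share of untested probe sets without overlap was not counted. Other untested genes of the neural lists, such as Isl1 and Gfap, also had the deficient arrays all higher. Ngfr, the p75 neurotrophin receptor gene of immature Schwann cells and neurons, was the one gene of this list with an unadjusted p under 0.05. It read 358, 300 and 376 on the deficient arrays, against 625, 453 and 429 on the adequate arrays. The groups did not overlap, where 10.8% of all tested probe sets had the deficient arrays all lower. The log2 change of Ngfr was -0.53 ± 0.21 (limma, adjusted p = 0.344). Ntrk2, the receptor for brain-derived neurotrophic factor, had -0.24 ± 0.18 (SE), and Sort1, the sorting receptor sortilin, -0.23 ± 0.16.

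Genes of Schwann cells and glia were split as well. Of 25 genes, 10 were tested, 5 higher and 5 lower (median log2 change 0.04). At an unadjusted p under 0.05 2 were higher and 1 lower (6.03% and 8.18% of all tested probe sets). Scn7a, a sodium channel gene of Schwann cells and smooth muscle, read 6354, 5192 and 2573 on the deficient arrays, against 2987, 1980 and 2737 on the adequate arrays, a log2 change of 0.80 ± 0.30 (SE). Only deficient arrays 1 and 2 were above the adequate range. Sox2, a transcription factor gene of immature glia, read 261, 246 and 166 on the deficient arrays, against 191, 115 and 99.0 on the adequate arrays, a log2 change of 0.77 ± 0.30. Cnp, a gene of myelinating glia, read 946, 901 and 1467 on the deficient arrays, against 1624, 1286 and 1598 on the adequate arrays, a log2 change of -0.47 ± 0.21. Prx, which encodes periaxin of the myelin sheath, had 0.42 ± 0.19 (limma, unadjusted p = 0.0541). Its groups did not overlap, where 6.55% of all tested probe sets had the deficient arrays all higher. In this list the groups did not overlap for 1 higher and 2 lower genes. The deficient arrays were all lower for 10.8% of all tested probe sets. The 2 lower genes were Erbb2, at -0.36 ± 0.21 (SE), and Mbp, at -0.33 ± 0.19. None of Scn7a, Sox2, Cnp and Prx had an adjusted p under 0.344.

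**Figure D5:**
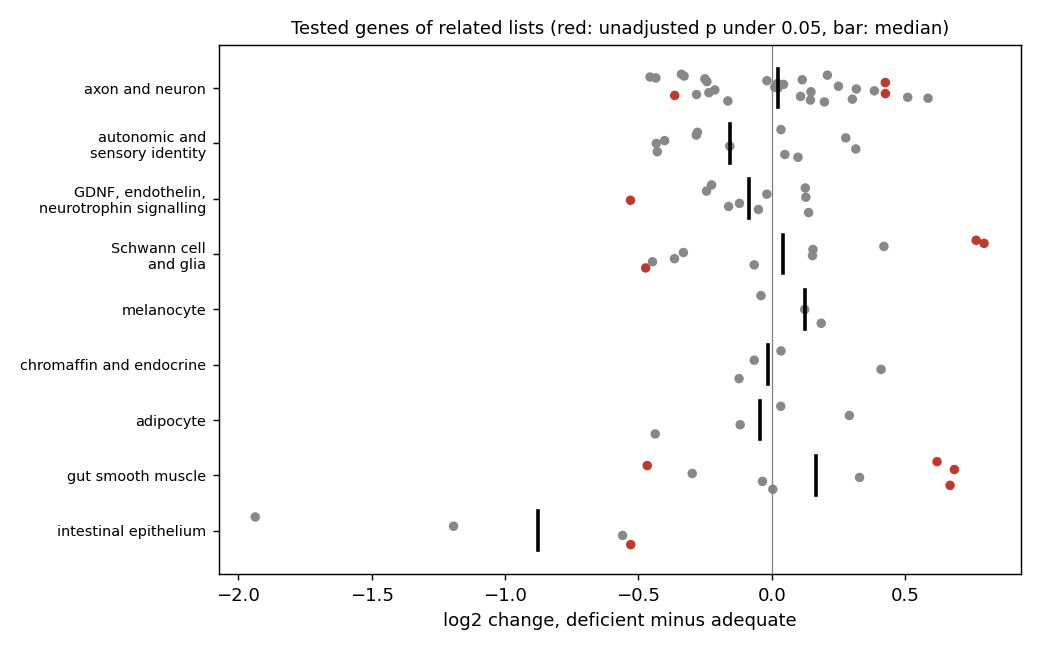
Log2 change, deficient minus adequate, of each tested gene of 4 neural lists and 5 lists of other cell types, with black bars at the list medians and red points at an unadjusted p under 0.05 (vertical offsets only separate the points). The 4 neural lists have medians between -0.16 and 0.04, with points on both sides of 0.

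Markers of other cells that express some members, or that dissected mesentery can hold, were read beside them. Melanocytes express Sox10: 3 of 6 markers were tested, 2 higher and 1 lower, and 0 had an unadjusted p under 0.05 by limma. Their log2 changes were 0.19 ± 0.26 (SE) for Dct, 0.12 ± 0.27 for Mitf and -0.04 ± 0.26 for Pmel, while Tyr and Mlana, which were not tested, lay between 1.56 and 32.5 over all arrays. Chromaffin and endocrine cells share neuronal genes: 4 of 8 were tested, 2 higher and 2 lower. Chgb had 0.41 ± 0.24, Scg5 0.04 ± 0.16, Ins1 -0.07 ± 0.27 and Chga -0.12 ± 0.34. Fat cells can express S100b: 4 of 7 markers were tested, 2 higher and 2 lower. Dgat2 had -0.44 ± 0.21, Fabp4 -0.12 ± 0.21, Pnpla2 0.03 ± 0.31 and Lipe 0.29 ± 0.30. The summed signal of the 7 fat cell markers was 2825, 2436 and 3733 on the deficient arrays, against 2854, 3314 and 3384 on the adequate arrays, and Fabp4 made up most of it. The sum was lowest on deficient array 2, as S100b was, while deficient array 1 and adequate array 1 were nearly equal. The mean centred log2 signal of the 4 tested markers was -0.16, -0.12 and 0.11 on the deficient arrays, against -0.15, 0.03 and 0.12 on the adequate arrays, so adequate array 1 lay between deficient arrays 1 and 2. The part of fat cell RNA in the S100b values was not tested.

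Gut wall smooth muscle surrounds enteric neurons, and most of its markers were bright. Of 9, 8 were tested, 5 higher and 3 lower. At an unadjusted p under 0.05 3 were higher and 1 lower (6.03% and 8.18% of all tested probe sets). Myh11, a smooth muscle myosin, read 33213, 31768 and 18551 on the deficient arrays, against 14781, 17633 and 18049 on the adequate arrays. Actg2, the enteric smooth muscle actin, read 38573, 46171 and 20202 on the deficient arrays, against 17381, 23215 and 22169 on the adequate arrays. Tagln had a log2 change of 0.62 ± 0.24 (SE) and Smtn, smoothelin, of -0.47 ± 0.20. The fixed marker Des went the other way from Actg2 and Myh11, with deficient arrays 1 and 2 the lowest. Des read 4946, 3961 and 6495 on the deficient arrays, against 5586, 6459 and 6550 on the adequate arrays. Kit, the other fixed marker, was under the cutoff, between 8.43 and 48.5. The summed signal of the 9 markers lay between 79622 and 126992 on the deficient arrays, against 65598 to 80854 on the adequate arrays. This sum came mostly from Actg2, Myh11 and Tagln, and was highest on deficient arrays 1 and 2. Gap43 and the brightest Ret probe set were also highest there, while the other tested Ret probe set was second lowest on deficient array 2. The part of gut wall in the members' values was not tested.

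Intestinal epithelium marked a different array. Of 8 markers 4 were tested and 4 had lower means in the deficient group, and adequate array 3 stood far above the other arrays for most of them. Lgals4, a gut galectin, read 61.4, 75.2 and 38.0 on the deficient arrays, against 128, 57.3 and 1347 on the adequate arrays. Epcam, an epithelial adhesion gene, read 115, 237 and 132 on the deficient arrays, against 207, 126 and 1639 on the adequate arrays. Cdh17 had a log2 change of -0.56 ± 0.76 (SE) and Anpep of -0.53 ± 0.22, and the unadjusted p of Anpep was 0.0367 by limma. Uchl1 and S100b were also at their highest, and Sox10 at its lowest, on adequate array 3. Without that array the log2 change of S100b was -0.59, that of Uchl1 -0.28 and that of Sox10 -0.30, and the part of gut tissue in these values was not tested.

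The genes most like each member were sought among 10590 others by the mean absolute difference of centred log2 signals over the 6 arrays. For Gap43 they were Mtss1 (0.040) and Ino80 (0.042), and for Ret Zfp266 (0.028) and Kitlg (0.029), the gene of the KIT ligand. For Stmn2 they were Atp6v0e2 (0.022), a subunit gene of the vacuolar proton pump, and Isoc1 (0.024), and for Tubb3 Slc4a3 (0.021) and Anapc5 (0.024). For Uchl1 they were Cd68 (0.041), a macrophage gene, and Mfap4 (0.045), a microfibril gene. For Sox10 they were Zfp874b (0.077) and Gskip (0.085), and for S100b Mlf2 (0.095) and Gtpbp1 (0.11). None of these 14 genes belongs to the neural lists, which held only 62 tested genes. S100b and Sox10 were less closely matched than the neuronal members. This difference tends to be larger for a gene with more spread, and the SD reached 0.67 for S100b (deficient) and 0.61 for Sox10 (adequate).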

How the data were processed

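The deposited values are linear intensity signals, made by the authors with MAS5 and Affymetrix Expression Console per the submitters' processing notes, and scaled to a common level on each array. Versions and MAS5 settings were not found in those notes. Scaling hides any difference in total RNA, and dim signals vary strongly on the log scale. The table held 31099 probe sets, 57 of them controls, 0 missing values and 0 identical pairs of arrays. The other 31042 signals were log2 transformed. Probe sets with a mean log2 signal under the 40th percentile (6.46 on that scale, or 88.2 as linear signal) stayed out of the tests, and 18625 remained. Of the 31042, 20826 had 1 gene symbol, 436 had more than 1, and 9780 were unnamed.

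Groups and replicate numbers came from the sample titles. Deficient minus adequate was fitted with limma 3.58.1 in R 4.3.3 (lmFit and trended eBayes). Its p-values are two-sided and were adjusted by Benjamini-Hochberg. The members and the 9 gene lists were chosen with earlier results of these data known. Lists used each gene's brightest tested probe set and were described by counts and medians. Named were all members, up to 4 genes per list by smallest p, the 2 genes most like each member and fixed cell type markers. Gfra1, Gfra3, Nrtn, Gdnf, Isl1, Gfap, Erbb2, Mbp and the ratio pairs were picked after their values were seen. The fit was tested on simulated data over 18625 probe sets, 100 changed at each size. There 36% were recovered at a log2 change of 1 and 92% at 2, with 7 false calls. The simulated noise was independent between arrays and probe sets. In the real data deficient arrays 1 and 2 stood apart together, so these rates may not hold for them. Alternatives covered normalization, offset, filter, variance trend, hybridisation covariate, replicate block and arrays left out. The number of arrays limits the precision.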

Additional observations from a re-analysis of the deposited data

How the results depend on the processing

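No member probe set passed the adjusted threshold with all 6 arrays, nor under quantile normalization, median centring, an offset of 50, either other filter, no variance trend or the hybridisation covariate. Leaving out 1 array gave 0 to 5 past it, 0 to 5 at an unadjusted p under 0.05 (2 with all arrays) and 1 to 6 without overlap (1 with all arrays). The highest of these counts came without deficient array 3. There 19.4% of all tested probe sets passed the adjusted threshold and 51.8% were without overlap. The other shares of all tested probe sets with 1 array left out were not counted. At an unadjusted p under 0.05 the hybridisation covariate left 0 and deficient array 3 alone gave 0, and with deficient array 3 alone 4 of the 9 lay outside the adequate range, against 54.4% of all tested probe sets. The filter at the 60th percentile removed Sox10 and the dimmer Ret probe set. With 1 array left out, the log2 change ranged from -0.13 to 0.058 for the dimmer Stmn2 probe set and from -0.30 to 0.30 for Sox10. With deficient array 3 alone the sign turned for Stmn2 (0.014 and 0.21) and Uchl1 (0.0095), and with the hybridisation covariate for the dimmer Stmn2 probe set (0.20). The neuronal mean ranged from -0.020 to 0.032, the glial mean from -0.59 to -0.26 and their difference from 0.27 to 0.58 with 1 array left out. With deficient array 3 alone the glial mean was 0.054 and the difference -0.019. In the 4 neural lists, the groups did not overlap for 2 higher and 7 lower genes of 62 tested. Of all tested probe sets, 6.55% and 10.8% were higher and lower without overlap. At an unadjusted p under 0.05, 4 of the 62 genes were higher and 3 lower, where 6.03% and 8.18% of all tested probe sets were. With 1 array left out, 0 to 11 were higher and 0 to 13 lower, and the shares of all tested probe sets at that level were not counted. Lower genes numbered 1 after quantile normalization and 1 after median centring, and higher genes 7 with no filter. Deficient array 3 alone gave 1 higher gene, and the hybridisation covariate gave 0 higher and 1 lower. Same-numbered arrays had deviations with correlations of 0.11, 0.15 and 0.0066. For each deficient array this was its highest correlation with an adequate array, while adequate array 3 correlated better with deficient array 1 (0.051). These values are small and the labels do not say whether the numbers pair the samples, so no pairing was assumed in the main fit. The replicate block gave 4 member probe sets at an unadjusted p under 0.05 and 0 past the adjusted threshold. The shares of all tested probe sets with that block were not counted. A lone array was assumed to vary like the adequate arrays. The causes were not tested.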
